A study of Homo sapiens with 18 samples.

Results

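Integrins are the receptors with which cells hold the extracellular matrix, and each is a pair of an α and a β chain encoded by separate genes. Laminins are basement membrane ligands built as trimers of an α, a β and a γ chain. In epithelium, the α6β4 integrin anchors cells to laminin through hemidesmosomes, which join keratin filaments, while the β1 integrins bind laminin, collagen or fibronectin and connect to actin. The 33 genes described here encode 14 integrin α chains, 8 integrin β chains, 5 laminin α chains, 4 laminin β chains and 2 laminin γ chains. They were chosen by gene symbol, with earlier results of these data known, and all 33 were among the 38055 genes with values.

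The values come from whole cell RNA of HCT116 cells, a colorectal carcinoma line of epithelial type and wild-type genotype. Cells were taken on day 3 at 50% confluency and on day 5 at 250% confluency, with 3 whole transcriptome libraries per day that the labels number as biological replicates. Day of growth and confluency differ together, so they cannot be told apart, and p-values measure the spread between these libraries of 1 cell line. Between 27470978 and 56689369 reads per library lay on genes, and both extremes were day 3 libraries. Of the epithelial markers, EPCAM averaged 7227 normalized reads on day 3 and 7236 on day 5, while VIL1, a marker of intestinal microvilli, averaged 2.65 and 2.80 and was not tested. The other 5 epithelial markers were called higher on day 5 (limma), with log2 changes of 2.63 for CDH1, 2.04 for CLDN4, 1.98 for KRT19, 1.05 for KRT8 and 0.93 for KRT18. Summed over 7 epithelial markers, the values were between 37953 and 56450 on day 3 and between 105566 and 106071 on day 5, and the part of this rise in the results below was not tested. Summed leukocyte markers (5 genes) stayed at or below 14.2 normalized reads in each library. The 5 fibroblast markers with values summed to between 526 and 605 on day 3 and to between 1124 and 1200 on day 5, mostly COL1A1, and their part was not tested. The 4 endothelial markers with values summed to between 18.4 and 34.2 on day 3 and to between 45.6 and 82.5 on day 5, and their part was not tested either. The 2 megakaryocyte markers with values did not exceed 3.22.

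On day 5, RNA of most of the tested chains was higher than on day 3. Of the 33 genes, 26 reached a normalized value of 10 in 3 or more of the 6 libraries and were tested. On day 5, 18 of the 26 were higher and 2 were lower than on day 3. A call required a limma p-value that stayed below 0.05 once adjusted by the Benjamini-Hochberg method over all genes tested. By the same rule 56.9% of all 20129 genes tested were called, 29.3% higher and 27.6% lower. The libraries of the 2 days did not overlap for 19 members with higher and 2 with lower values on day 5, against 33.4% and 31.7% of all genes and 65.0% in either direction. The median log2 fold change was 0.88 over the 26 members and 0.01 over all genes tested. At least a 2-fold change was reached by 12 members that were higher and by both that were lower, against 10.2% and 7.60% of all genes. Since RNA was taken from many cells together, more RNA per cell and more cells with the RNA cannot be told apart. Values are also relative to the other RNA of a library, so a higher value need not be more RNA per cell. The laminin chains and the α chains of integrins made up most of the rises, with 8 of 11 tested integrin α chains and 8 of 9 tested laminin chains higher, whereas 2 of 6 tested integrin β chains were higher.

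**Figure D1:**
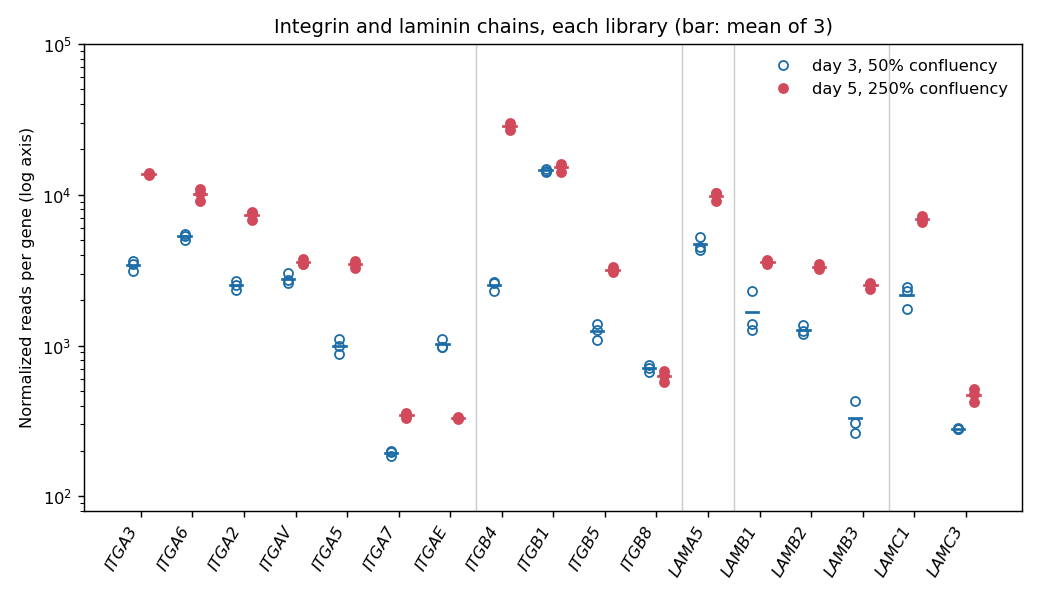
Normalized reads per gene (log axis) of the 17 chains with at least 1 RPKM (reads per kilobase of exon and 1000000 reads on genes) on either day, grouped as integrin α, integrin β, laminin α, laminin β and laminin γ. Open blue circles are the 3 day 3 libraries, filled red circles the 3 day 5 libraries and bars their means. ITGB4 moved from between 2295 and 2652 to between 26736 and 29812, while the ITGB1 libraries of the 2 days overlapped.

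Integrin β chains. ITGB4 (ENSG00000132470, chromosome 17 of GRCh38 from 75721328 to 75757818, plus strand) encodes the β chain found only with α6, whose long cytoplasmic tail binds plectin. It stood at 2295, 2652 and 2596 normalized reads in the day 3 libraries and at 26736, 28733 and 29812 in the day 5 libraries. All day 5 libraries lay far above all day 3 libraries. The log2 fold change was 3.50 (standard error, SE, 0.09, limma adjusted p = 7.05e-05), an 11.3-fold rise of the means. Counted from the largest rise, ITGB4 ranked 25 of the 20129 genes tested.

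ITGB1 (ENSG00000150093, chromosome 10 from 32887273 to 33005792, minus strand) encodes the β chain shared by most matrix-binding integrins. Its values were 14172, 14427 and 14922 on day 3 and 14123, 15444 and 16105 on day 5. The days overlapped, and the log2 change of 0.07 (SE 0.08) did not pass (limma, adjusted p = 0.513). ITGB5 (chromosome 3 from 124761948 to 124901418, minus strand), a partner of αV that binds vitronectin, rose from 1092, 1265 and 1384 to 3147, 3070 and 3336, a log2 change of 1.36 (SE 0.11, limma adjusted p = 0.000297). ITGB8 (chromosome 7 from 20330702 to 20415754, plus strand), the αV partner that holds latent TGF-β, stood at 707, 739 and 668 on day 3 and at 640, 573 and 680 on day 5. These libraries overlapped, with a log2 change of -0.16 that missed the threshold (limma, adjusted p = 0.198).

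ITGB7 and ITGB6 were weakly expressed. ITGB7, the β chain of gut lymphocyte integrins, had values from 9.89 to 19.8 on day 3 and from 21.7 to 27.9 on day 5, and its log2 change of 0.65 did not pass (limma, adjusted p = 0.0705). It passed without day 3 replicate 3 (limma, adjusted p = 0.0380) and with library totals as the scale (limma, adjusted p = 0.0459). Exons of ZNF740 on the opposite strand cover 42.3% of the ITGB7 exon length. ZNF740 averaged 1341 normalized reads on day 3 and 1803 on day 5 and was called higher (log2 change 0.43, limma adjusted p = 0.00441). Counting was strand-specific according to the methods, and any part of ZNF740 in the ITGB7 values was not tested. ITGB6, an epithelial αV partner, ranged from 5.27 to 19.8 on day 3 and from 5.42 to 15.5 on day 5, and the sign of its difference depended on which library was left out. Exons of a long noncoding RNA gene on the same strand cover 16.7% of the ITGB6 exon length, and its part was not tested. ITGB2 of leukocytes and ITGB3 of platelets were not tested, with at most 7.50 normalized reads in any library.

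Per length, the β chains changed places. Levels in RPKM, reads per kilobase of exon and 1000000 reads on genes as computed here, were 27.7 ± 1.24 (SD, n = 3) for ITGB1 and 10.3 ± 0.738 for ITGB4 on day 3. On day 5 the values were 30.5 ± 1.74 for ITGB1 and 122 ± 5.59 for ITGB4. As a share of the reads per length of the 8 β chains, ITGB4 went from 23.04% ± 0.946 (SD, n = 3) to 72.6% ± 0.233 and ITGB1 from 61.8% ± 1.5 to 18.1% ± 0.240. With the longest transcript as the length, ITGB4 went from 12.6% to 57.9% and ITGB1 from 76.5% to 32.5%, so ITGB1 led on day 3 and ITGB4 on day 5 by either length.

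**Figure D2:**
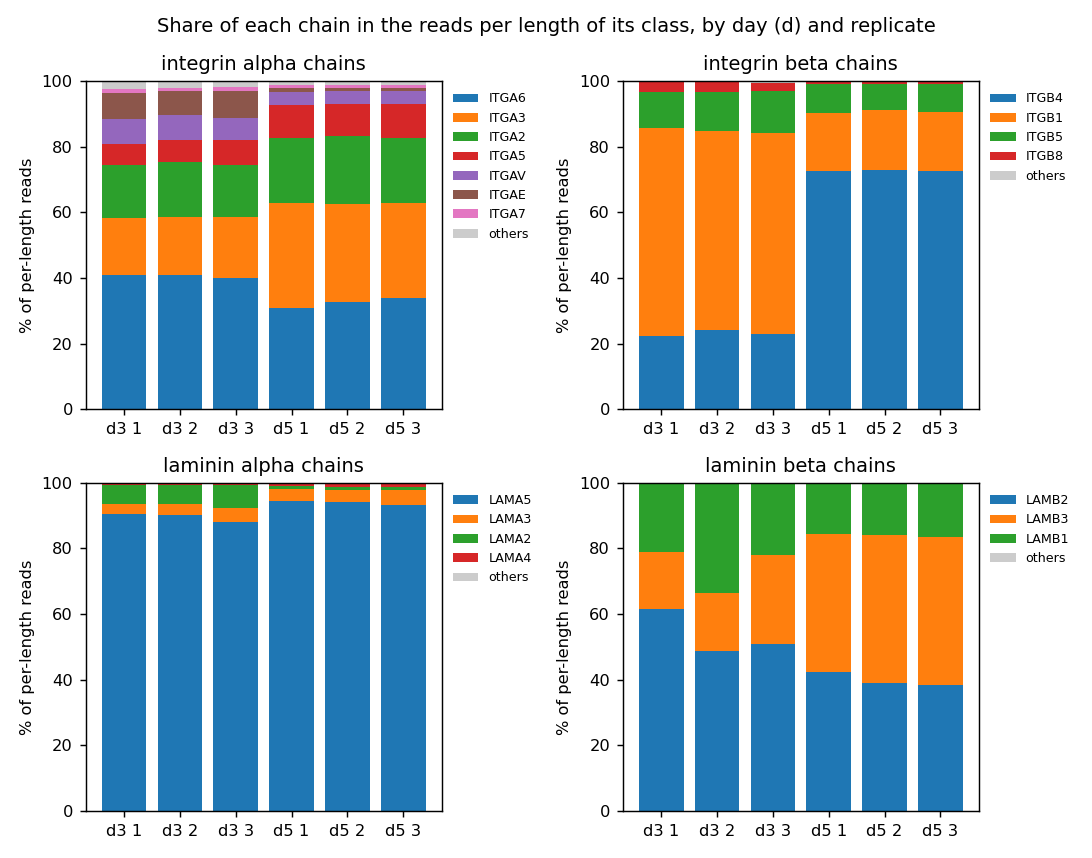
Share of each chain in the reads per length of its class (%, stacked bars), for integrin α, integrin β, laminin α and laminin β chains, in each library (d3 and d5 with the replicate number). ITGB4 filled 23.04% of the β chain bars on average on day 3 and 72.6% on day 5, LAMB3 filled 20.7% and 44.2% of the laminin β bars, and LAMA5 filled most of the laminin α bars on both days.

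Integrin α chains that bind laminin. ITGA6 (ENSG00000091409, chromosome 2 from 172427354 to 172506459, plus strand) pairs with β4 or β1. It rose from 5048, 5521 and 5317 normalized reads to 9112, 10276 and 10894, a log2 change of 0.93 (SE 0.10, limma adjusted p = 0.000579). ITGA3 (ENSG00000005884, chromosome 17 from 50055968 to 50090481, plus strand) encodes the α chain of α3β1, a receptor for laminins with an α3 or α5 chain. It rose from 3143, 3499 and 3640 to 13786, 13924 and 13609. This was the largest rise among the tested α chains, with a log2 change of 2.01 (SE 0.08, limma adjusted p = 0.000128). ITGA7, a laminin receptor chain best known from muscle, was much weaker and rose from 196, 185 and 198 to 357, 345 and 331, with a log2 change of 0.83 (SE 0.08, limma adjusted p = 0.000403).

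Integrin α chains that bind collagen or fibronectin. ITGA2 (chromosome 5 from 52989340 to 53094779, plus strand), the α chain of the collagen receptor α2β1, rose from 2330, 2670 and 2526 to 6850, 7643 and 7584. Its log2 fold change was 1.55 (SE 0.09, limma adjusted p = 0.000185). ITGA5 (chromosome 12 from 54395261 to 54419266, minus strand), the α chain of the fibronectin receptor α5β1, rose from 877, 997 and 1107 to 3276, 3460 and 3627. Its log2 fold change was 1.80 (SE 0.11, limma adjusted p = 0.000189). The other collagen receptor chains were weak. ITGA1 stood between 83.6 and 125 on day 3 and between 65.1 and 94.2 on day 5 (log2 fold change -0.38, limma adjusted p = 0.164). Exons of PELO on the same strand cover 2.69% of the ITGA1 exon length. PELO averaged 948 normalized reads on day 3 and 949 on day 5, and any part of it in the ITGA1 values was not tested. ITGA10 stood between 49.6 and 82.5 and then between 77.0 and 98.6 (log2 fold change 0.54, limma adjusted p = 0.0694), and it passed without day 3 replicate 1 (limma, adjusted p = 0.0120). ITGA11 was not tested.

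Other α chains. ITGAV (chromosome 2 from 186590010 to 186680901, plus strand), the shared partner of β1, β3, β5, β6 and β8, moved least among the α chains called higher. Its values were 2725, 3015 and 2601 on day 3 and 3471, 3466 and 3753 on day 5. The log2 fold change was 0.36 (SE 0.09, limma adjusted p = 0.0157), and the call was lost without day 5 replicate 3 (limma, adjusted p = 0.0587) and without the filter on low values (limma, adjusted p = 0.0844). ITGAE (ENSG00000083457, chromosome 17 from 3714628 to 3801188, minus strand) encodes the α chain that pairs with β7 on lymphocytes of epithelia and binds E-cadherin. It fell from 984, 971 and 1097 to 333, 338 and 325, a log2 change of -1.61 (SE 0.08, limma adjusted p = 0.000156). All day 5 libraries were below all day 3 libraries. ITGAE RNA was present although its β7 partner was near the filter and leukocyte markers were near 0. HASPIN, a kinase gene on the opposite strand that shares 6.47% of the ITGAE exon length, had a log2 change of 0.31 that missed the threshold (limma, adjusted p = 0.170). The counting was strand-specific according to the methods, and any part of HASPIN in the ITGAE values was not tested. ITGA9 and ITGA2B were higher at low levels, ITGA9 going from between 51.8 and 81.6 to between 106 and 128 and ITGA2B from between 78.0 and 96.4 to between 125 and 146, with log2 changes of 0.78 and 0.59 (limma adjusted p = 0.0128 and 0.00628). ITGA4 and ITGA8 were not tested.

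The order of the α chains per length also shifted. On day 3, ITGA6 led with 22.1 ± 1.58 RPKM (SD, n = 3), ahead of ITGA3 at 9.72 ± 0.410 and ITGA2 at 8.85 ± 0.733. On day 5, ITGA6 at 44.02 ± 3.52 and ITGA3 at 41.0 ± 0.997 overlapped between libraries, and ITGA2 stood at 27.2 ± 1.52. With the longest transcript as the length, ITGA3 was above ITGA6 on day 5, at 73.3 against 50.6, so the order of these chains depends on the length used. ITGAE, at 4.28 ± 0.0939 RPKM on day 3, was within the spread of ITGAV at 4.02 ± 0.510 and fell to 1.47 ± 0.0467 on day 5, below ITGAV at 5.37 ± 0.172 and ITGA5 at 13.6 ± 0.546. With the longest transcript as the length, ITGAE was at 7.44 and ITGAV at 9.77 RPKM on day 3, so their nearness depends on the length as well.

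**Figure D3:**
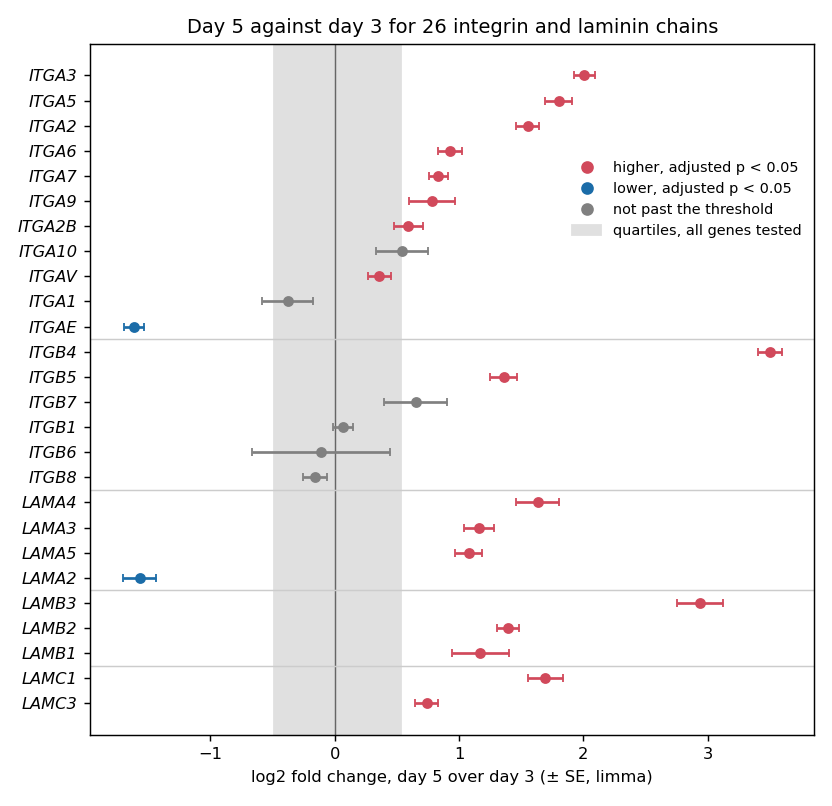
Log2 fold change of day 5 over day 3 with its standard error (limma on log2(value + 1)) for the 26 tested chains, grouped by class. Red points were higher, blue points lower and grey points not past the threshold, and the grey band holds the middle quartiles of all 20129 genes, from -0.49 to 0.53. ITGB4 at 3.50 and LAMB3 at 2.94 stand farthest to the right, ITGAE and LAMA2 farthest to the left.

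Laminin chains. LAMB3 (ENSG00000196878, chromosome 1 from 209614870 to 209652425, minus strand) encodes the β3 chain, which joins α3 in the epithelial laminin under hemidesmosomes. It rose from 263, 305 and 428 normalized reads to 2362, 2583 and 2562, with all day 5 libraries above all day 3 libraries. The log2 fold change was 2.94 (SE 0.18, limma adjusted p = 0.000201), and LAMB3 ranked 44 of 20129 from the largest rise. LAMA3 (chromosome 18 from 23689453 to 23956222, plus strand), its α partner, was weaker and rose less, from 176, 167 and 213 to 382, 426 and 434, a log2 change of 1.16 (SE 0.12, limma adjusted p = 0.000554). The LAMA3 level was low, at 0.354 RPKM on day 3 and 0.832 on day 5, or 0.482 and 1.13 with the longest transcript as the length. The γ chain of that trimer is not among the 33 genes.

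The chains of the α5 laminins all rose. LAMA5 (ENSG00000130702, chromosome 20 from 62307955 to 62367312, minus strand) rose from 5261, 4481 and 4334 to 10262, 10221 and 9142, a log2 change of 1.08 (SE 0.11, limma adjusted p = 0.000509). LAMB2 (chromosome 3 from 49121114 to 49133118, minus strand) rose from 1374, 1242 and 1191 to 3490, 3297 and 3204, a log2 change of 1.39 (SE 0.09, limma adjusted p = 0.000204). LAMC1 (chromosome 1 from 183023420 to 183145592, plus strand), the γ chain of most laminins, rose from 1756, 2300 and 2454 to 6648, 6954 and 7258, a log2 change of 1.69 (SE 0.14, limma adjusted p = 0.000326). LAMB1 (chromosome 7 from 107923799 to 108003213, minus strand) had 1 day 3 library apart from the others, with 1276, 2305 and 1392 on day 3 against 3476, 3614 and 3718 on day 5. Its log2 change of 1.17 (SE 0.23, limma adjusted p = 0.00608) became 1.43 without day 3 replicate 2, the library at 2305.

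The remaining laminin chains were weak and moved in both directions. LAMC3 rose from 280, 279 and 285 to 425, 476 and 515, a log2 change of 0.74 (SE 0.09, limma adjusted p = 0.00112). LAMA4, an α chain of vessels and mesenchyme, rose from between 26.9 and 37.8 to between 81.3 and 110, a log2 change of 1.63 (limma adjusted p = 0.000629). LAMA2 (chromosome 6 from 128883138 to 129516566, plus strand), the α chain of muscle basement membrane, fell from 601, 543 and 627 to 232, 171 and 195. Its log2 fold change was -1.57 (SE 0.13, limma adjusted p = 0.000335), and its level was 0.621 RPKM on day 3 and 0.220 on day 5, or 1.65 and 0.584 with the longest transcript as the length. LAMA1 had at most 3 reads in a day 3 library and 0 reads in each day 5 library, and a count of 0 allows up to 3 reads, so no difference was detectable at this depth. LAMB4 was also untested, and the 7 untested chains had at most 9 reads in any library.

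Per length, LAMA5 held 89.6% ± 1.27 (SD, n = 3) of the laminin α reads on day 3 and 93.9% ± 0.609 on day 5, while LAMA2 went from 6.13% ± 0.681 to 1.03% ± 0.156, or from 12.1% to 2.14% with the longest transcript as the length. Among the β chains, LAMB2 was at 53.8% ± 6.79 on day 3, with LAMB1 at 25.5% ± 6.90 and LAMB3 at 20.7% ± 5.49, the last 2 with overlapping libraries. On day 5, LAMB3 at 44.2% ± 1.72 and LAMB2 at 39.9% ± 2.09 were highest and LAMB1 was at 15.9% ± 0.455. With the longest transcript as the length, LAMB1 was at 44.3% on day 3, above LAMB2 at 41.4% and LAMB3 at 14.3%. On day 5 the 3 chains were then close, at 34.2% for LAMB3, 34.4% for LAMB2 and 31.4% for LAMB1, so the order of LAMB1 and LAMB2 on day 3 and of all 3 on day 5 depends on the length used.

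Pairs of chains. A ratio between 2 chains of the same library is free of the scaling factor of that library. Of 28 listed pairs, 21 had both chains tested, 14 of integrin and 7 of laminin chains. For 15 of the 21, the libraries of the 2 days did not overlap, 8 with a higher and 7 with a lower ratio on day 5. Of all single genes tested, 65.0% did not overlap in either direction, and no such share was computed for ratios of other genes. Most integrin pairs share ITGB1, whose log2 change was 0.07. Their ratios therefore largely repeat the changes of the α chains and are not separate results. Each of the 15 gave p = 0.1 in a two-sided exact permutation test, which is the smallest p possible with 3 libraries on each day, and an exact permutation p of 0.14 once adjusted for the 21 pairs (Benjamini-Hochberg). No pair could therefore pass the threshold.

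In the α6β4 pair, ITGA6 had more RNA reads than ITGB4 on day 3 and fewer on day 5. As α6 also pairs with β1 and no protein was measured here, this does not give the make-up of the receptor. The log2 ratio of ITGA6 to ITGB4 was 1.14, 1.06 and 1.03 in the day 3 libraries and -1.55, -1.48 and -1.45 in the day 5 libraries, a change of -2.57. Per length, ITGA6 was above ITGB4 on day 3 (22.1 against 10.3 RPKM) and below it on day 5 (44.02 against 122 RPKM). The ratios of ITGA3, ITGA5, ITGA2 and ITGA6 to ITGB1 were higher by 1.94, 1.73, 1.48 and 0.86, and that of ITGAV by 0.29. The ITGA3 to ITGB1 ratio went from between -2.17 and -2.03 to between -0.24 and -0.03. Among the αV pairs, ITGAV to ITGB5 fell from 1.32, 1.25 and 0.91 to 0.14, 0.18 and 0.17, while ITGAV to ITGB8 went from 1.95, 2.03 and 1.96 to 2.44, 2.59 and 2.46.

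Among the 7 laminin pairs, the LAMA3 to LAMB3 ratio changed most. It went from -0.58, -0.86 and -1.01 to between -2.63 and -2.56, a change of -1.78. The changes in the α5 laminin pairs were -0.09 for LAMA5 to LAMB1, -0.32 for LAMA5 to LAMB2 and -0.62 for LAMA5 to LAMC1, and that of LAMB1 to LAMC1 was -0.52. The libraries of the 2 days did not overlap for the last 3 of these ratios. For LAMA5 to LAMB1 the libraries overlapped (exact permutation p = 0.8) and without day 3 replicate 1 the sign turned to 0.15.

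**Figure D4:**
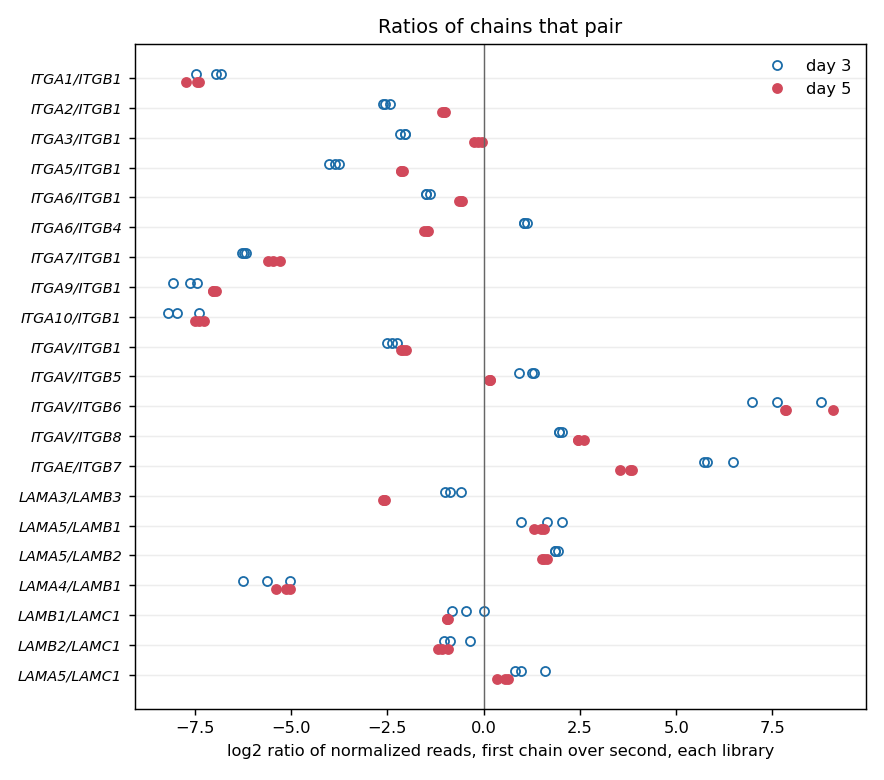
Log2 ratio of normalized reads, with 1 added to each value, of the first chain over the second in each library, for the 21 pairs with both chains tested (open blue circles, day 3, and filled red circles, day 5, 3 libraries each). ITGA6/ITGB4 crosses 0 from between 1.03 and 1.14 to between -1.55 and -1.45, and LAMA5/LAMB1 overlaps between the days.

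Promoter windows of the members that hold an AP-1 motif are shown because both chains of the α3β3 laminin pair and the fibronectin receptor chain ITGA5, which all rose, were among them, a choice made after their values were seen. RefSeq promoters (GRCh38.p14, 250 bases before to 50 after a gene's start) were matched for 25 of the 33 genes. The letters TGANTCA, which read the same on both strands apart from the central base, were found in 3 of the 25 and in 7.71% of 35116 promoters. Here and for the other letters below, a gene counted if any of its promoters matched, while each percentage is over single promoters. A gene with several promoters has more places to match, so the counts and percentages are not on the same basis. The windows of 30 bases run 5′ to 3′ on the strand of the gene, with the motif in capitals.
LAMB3 (chr1:209651423-209651452, minus strand, motif from 67 bases before the start): gtcagccactcTGACTCAttcactttgggc
LAMA3 (chr18:23872884-23872913, plus strand, motif from 125 bases before the start): ctggcacaggcTGACTCAtgtgtgaagttt
LAMA3 (chr18:23872940-23872969, plus strand, motif from 69 bases before the start): ccttcctcaccTGAGTCAggcaggcccggg
ITGA5 (chr12:54419254-54419283, minus strand, motif from 6 bases before the start): cctccccgcgtTGAGTCAttcgcctctggg
The starts RefSeq gives here for LAMA3 and LAMB3 lie inside the spans of these genes given above. Among the other letters searched on both strands, ACGTG or GCGTG of the hypoxia response element was found in 12 of the 25 genes and in 48.4% of all promoters, GGGCGG of the GC box in 13 and in 45.0%, and GGAATG of TEAD factors in 4 and in 14.0%. A match describes letters and no binding was measured.

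Genes that link integrins to the cytoskeleton were mostly higher as well. Of a list of 25 linkage genes, all tested, 20 were higher on day 5 and 2 lower (limma), against 29.3% and 27.6% of all genes tested, with a median log2 change of 0.71. This list and those below were chosen with earlier results of these data known, so that choice can add to their distance from all genes. The largest rises were those of PLEC, encoding the plectin that ties ITGB4 to keratin, with a log2 change of 1.93 (limma adjusted p = 0.000142), of the actin crosslinker FLNA at 1.89 and of the integrin activator TLN1 at 1.87. PLEC went from a mean of 10375 ± 869 normalized reads (SD, n = 3) to 39317 ± 1054. The 2 that fell were ITGB1BP1, which binds the β1 tail, at -0.84, and FERMT2, a kindlin, at -0.30. The call of FERMT2 was lost when any 1 of 5 libraries was left out, with the replicate block (limma, adjusted p = 0.0550) and without the filter on low values (limma, adjusted p = 0.143). Among the rises, CD151 lost its call with the replicate block (limma, adjusted p = 0.0646) and without the filter (limma, adjusted p = 0.113). The CD151 call was also lost without day 3 replicate 1 or 2, or any day 5 library. DST lost its call without day 5 replicate 2 and PARVA without day 5 replicate 1, and both without the filter. PTK2 and SHARPIN, not called, passed under several alternatives.

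Matrix and other binding partners were counted in the same way, beside the same 29.3% higher and 27.6% lower among all genes tested. Of 16 basement membrane and matrix ligands, 9 were tested, 7 higher and 1 lower, with a median of 0.73. The largest rises were those of HSPG2 (perlecan, 2.47), FN1 (fibronectin, 1.81) and FBLN1 (fibulin, 1.44). SPP1 (osteopontin) fell by 1.82 on the log2 scale (limma, adjusted p = 0.000895), but it was weak, at 0.271 RPKM on day 3 and 0.0792 on day 5. THBS1, the gene at the median, lost its call with the replicate block (limma, adjusted p = 0.0758) and without the filter on low values (limma, adjusted p = 0.0964). The THBS1 call was also lost without day 3 replicate 1 or 2, or day 5 replicate 1 or 3. COL4A5 lost its call without the filter and without day 5 replicate 2, and COL4A6 gained one with eBayes with trend and with edgeR. The basement membrane genes COL4A1, COL4A2, NID1 and NID2 were not tested because of low values, each with a mean of at most 5.66 normalized reads on either day. Of 6 laminin receptors other than integrins, 5 were tested, and SDC4, DAG1 (dystroglycan) and BCAM were higher, with log2 changes of 1.63, 1.40 and 0.94. RPSA, a laminin-binding protein that is also a part of the small ribosomal subunit, fell by 0.95 (limma, adjusted p = 0.00145). It has many pseudogene copies that could take up reads, and their part was not tested. Of 8 genes of latent TGF-β, which αV integrins activate, 7 were tested and 6 were higher, led by LTBP2 (1.99), TGFB1 (1.71) and LTBP3 (1.66). LTBP2 was weak, at 0.233 RPKM on day 3 and 0.955 on day 5. Of 10 ligands on cells, 6 were tested, 4 higher and 1 lower. CDH1, the E-cadherin bound by the integrin with the ITGAE chain, rose by 2.63 on the log2 scale (limma, adjusted p = 0.000100), L1CAM by 2.38 and ICAM1 by 1.46, and ADAM9 was at -0.29, a call lost without day 3 replicate 2 (limma, adjusted p = 0.0740), day 5 replicate 1 (limma, adjusted p = 0.0688) or day 5 replicate 2 (limma, adjusted p = 0.0811). It was also lost with library totals (limma, adjusted p = 0.0544), the replicate block (limma, adjusted p = 0.0595) and no filter on low values (limma, adjusted p = 0.117).

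**Figure D5:**
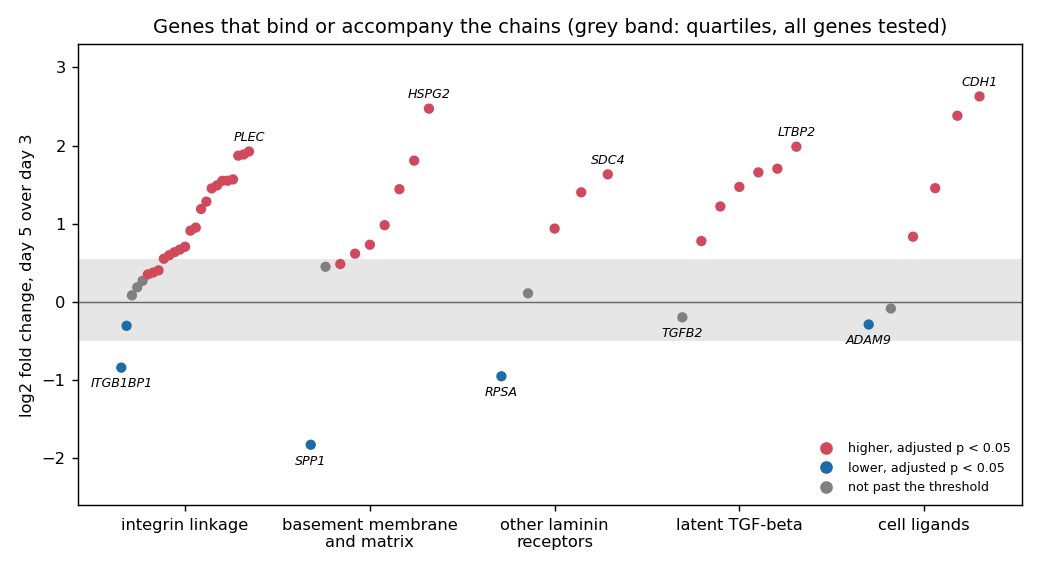
Log2 fold change of day 5 over day 3 for the tested genes of 5 lists of integrin linkage, matrix, other laminin receptor, latent TGF-β and cell ligand genes, each point 1 gene, with the lowest and highest of each list named. Red, blue and grey mark higher, lower and not past the threshold, and the band is the middle quartiles of all genes tested. HSPG2 at 2.47 and CDH1 at 2.63 are the highest, and the weakly expressed SPP1 at -1.82 is the lowest.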

How the data were processed

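HCT116 whole transcriptome libraries of day 3 and day 5 (3 per day) were analysed, with groups and replicate numbers from the labels. The authors prepared rRNA-depleted, stranded libraries with UMI adapters and mapped paired reads strand-specifically to ENSEMBL hg38 genes in CLC Genomics Workbench, with TMM named for normalization. The deposited signal is a normalized read number per gene and library, and the authors' own fold changes and p-values in the same table were not used. All values (100%, within 0.01 reads) were whole multiples of 1 read, which gave reads per library between 27470978 and 56689369. Day 7 and small RNA values were not used here. The members and lists were chosen with earlier results of these data known.

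limma 3.58.1 (R 4.3.3) was fitted to log2(value + 1) of the 20129 genes reaching a value of 10 in 3 or more of the 6 libraries, with Benjamini-Hochberg adjustment and a threshold of 0.05. Fold changes on that scale understate those of weak genes. Tested on simulated data of 19706 genes, it called 167 of 200 genes changed 2-fold (83.5%), with 12 false calls. The changed genes were drawn from the better expressed genes only and all others were left unchanged, so this share does not describe weak genes. For ratios, exact permutation tests (two-sided) were used (scipy 1.17.1). RPKM used recovered reads and the union of exons of GENCODE 44 on GRCh38, with the longest transcript as the alternative. Named in full were members passing the filter with at least 1 RPKM on either day, and, of each list, up to 3 with the largest rise and fall among those called without overlap between days. Alternatives were library totals, TMM anew, a pseudocount of 0.1, no filter, eBayes with trend, a replicate block, leaving out each library, a 2-fold minimum, and DESeq2 1.42.0 and edgeR 4.0.16 on the recovered reads, which called 11110 and 12280 genes against 11450 by limma. These counts have unlike bases, since DESeq2 tested 25512 genes and edgeR and limma 20129. Tables and figures used Python 3.11.15, pandas 2.3.3, numpy 2.4.6 and matplotlib 3.10.9.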

Additional observations from a re-analysis of the deposited data

How the results depend on the processing

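Of the 26 tested members, 22 kept their direction and their side of the threshold under all 14 alternatives other than a 2-fold minimum. The exceptions were ITGAV, ITGA10 and ITGB7, given above, and ITGB6, whose log2 fold change turned to 0.03 without day 3 replicate 2, 0.26 without day 3 replicate 3 and 0.32 without day 5 replicate 1 (range -0.61 to 0.32). SDC1, a laminin-binding syndecan, turned to -0.012 without day 3 replicate 1 (range -0.012 to 0.22). The LAMA5 to LAMB1 ratio turned to a change of 0.15 without day 3 replicate 1 (range -0.39 to 0.15), while 167 of 168 ratio values kept their direction. The causes were not tested. With at least a 2-fold change required, 3589 genes were called in place of 11450, with 10 linkage genes, 4 matrix ligands, 2 other laminin receptors and 3 cell ligands, and ITGA2B, ITGA6, ITGA7, ITGA9, ITGAV and LAMC3 dropped out, by the construction of this rule. Leaving out 1 library at a time gave between 9768 and 11390 genes and between 19 and 21 members. Where that left 2 libraries on a day, they had to meet the filter.

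Libraries of the 2 days with the same replicate number had correlations of deviations of -0.07, 0.02 and 0.04 over 14375 genes. Libraries with different numbers had between -0.12 and 0.13. No pairing by number was seen in these values, which cannot decide whether libraries of equal number were grown or prepared together. With the replicate block, 10533 genes and 19 members were called, and ITGAV was not (limma, adjusted p = 0.0531). Library totals as the scale moved the share of calls that were higher from 51.5% to 56.3%. Of 62 shares per length, 39 moved by more than the spread between libraries with the longest transcript as the length.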
